A study of Homo sapiens with 2 samples.

Results

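The 9 genes described here are the C/EBP transcription factors CEBPA, CEBPB, CEBPD, CEBPE and CEBPG, their relative DDIT3, and the Tribbles pseudokinases TRIB1, TRIB2 and TRIB3. Their probes were found by the RefSeq accession that the array design gives each probe. This yielded 15 probes of 41000, and 9 genes of the 17240 that could be named on the arrays. Agilent whole human genome arrays, read in 2 colours, measured RNA of SKOV3 cells, an established line of human ovarian adenocarcinoma. The clone cl-sh3 carried a short hairpin RNA against RUNX2 in the lentiviral vector pLKO.1-puro, while the mock-transfected control clone carried that vector with a scramble sequence, both after puromycin selection. Each condition was a single clone, so the hairpin and other differences between the 2 clones cannot be told apart. The 2 hybridizations held the same pair of RNAs with the dyes reversed, and count as 1 replicate.

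C/EBP factors are basic leucine zipper (bZIP) proteins that bind DNA as dimers and are best known for driving the differentiation of fat, liver and myeloid cells and the acute phase response. DDIT3, also called CHOP, dimerizes with them, keeps them from many of their usual sites and is made when unfolded protein or amino acid shortage activates the translation-dependent factor ATF4. Tribbles proteins have a kinase fold with little or no catalytic activity and act as scaffolds. TRIB1 and TRIB2 bring C/EBP alpha to the ubiquitin ligase COP1 for degradation, while TRIB3 binds ATF4 and AKT and is itself a target of ATF4 and DDIT3.

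Values are log2 ratios of cl-sh3 over control after dye normalization, so that -1 means 2-fold lower in cl-sh3. A probe was kept when at least 1 of the RNAs was well above background in both hybridizations, which left 36060 of 41000 probes (88.0%). The 2 hybridizations differed by a median of 0.22 log2 units over the kept probes, and by 0.63 at the 95th percentile. This difference is technical, since no second pair of clones was hybridized, and no p-value is given. The targeted gene was read by 3 probes that did not give 1 value. RUNX2 probe A_32_P161762 read -2.04 and -1.30 in hybridizations 1 and 2, A_24_P69267 read 0.17 and -0.13, and A_32_P148058 read -0.29 and -0.17. Thus 1 of the 3 RUNX2 probes passed 2-fold lower in each orientation. It was also the brightest, with a mean log2 signal over both dyes and hybridizations of 10.37, against 8.36 and 7.58 at the others. All 8 epithelial and SKOV3 markers examined, among them KRT18 and ERBB2 at signals of up to 108807 and 103806, had a probe well above background in both RNAs of both hybridizations. Of 7 markers of leukocytes, endothelium and stroma, 6 also carried that flag, at signals of up to 1625. MUC16, the dimmest of the 8 epithelial and SKOV3 markers, reached only 448.5, less than some of these. No marker passed 2-fold by its brightest probe, but 6 of the 8 epithelial and SKOV3 markers were higher in cl-sh3 in both hybridizations and 1 was lower, with a median of 0.40. KRT7 was the highest, with a mean of 0.83, and ERBB2 the lowest, at -0.66. The other ERBB2 probe had a mean of 0.22, so its direction rests on the choice of probe. Of the 7 other markers 2 were higher in both and 1 lower, with a median of 0.08. Over all 16153 genes with a kept probe, 30.9% were higher in both hybridizations and 28.4% lower. The part of the marker differences in the members' values was not tested.

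Of the 15 probes, 14 were kept, and these covered all 9 genes. Of the 14, 3 passed a threshold of 2-fold lower in cl-sh3 with either dye order, and 0 passed 2-fold higher. They belonged to TRIB3, DDIT3 and CEBPB. Over all kept probes, 0.394% were that much lower and 0.122% that much higher. These shares are 142 and 44 probes, a split that became 124 and 77 when the arrays were centred on the median in place of loess. In hybridization 1 alone 506 probes were lower and 88 higher, and in hybridization 2 alone 196 were lower and 219 higher, so that lower probes outnumbered higher ones in the first and not in the second. The members counted 4 lower and 0 higher in the first alone, and 3 and 0 in the second. At 1.5-fold the count was 4 lower, against 2.32% of all kept probes, and 0 higher, against 1.35%. By sign alone, 11 of the 14 were lower in both hybridizations and 2 were higher in both, where 27.3% of all kept probes were lower and 29.8% higher. The median of the 14 was -0.22, and that of all kept probes 0.01. The members were chosen with earlier results of these arrays known, so these and later counts of members are not independent of the values.

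**Figure D1:**
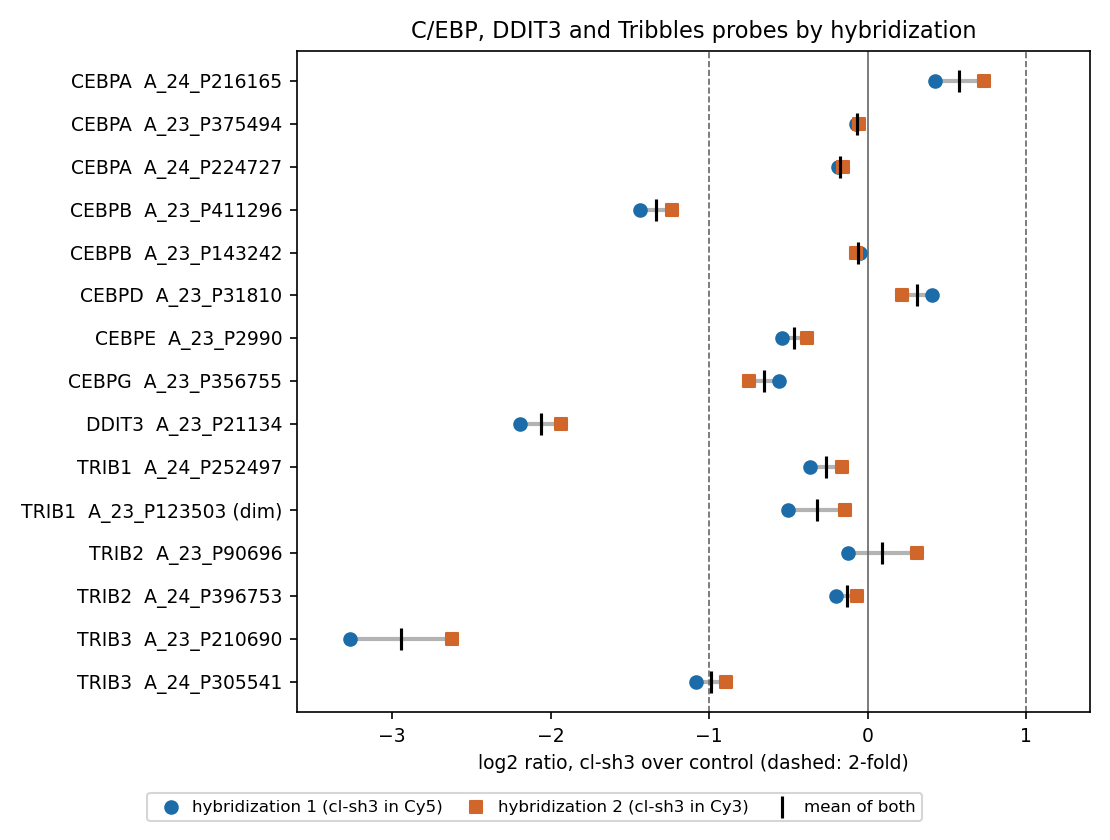
The log2 ratio of cl-sh3 over control (x axis) is plotted for each of the 15 probes (y axis) in hybridization 1 (circles) and hybridization 2 (squares), with the mean of both as a tick. TRIB3, DDIT3 and 1 CEBPB probe lie beyond the dashed line of 2-fold lower in both hybridizations, and no probe lies beyond that of 2-fold higher.

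TRIB3, the Tribbles gene that answers to cell stress, gave the lowest value of all 36060 kept probes. The signal of A_23_P210690 (NM_021158), less its local background, was 15183.5 scanner units in cl-sh3 and 72823.5 in the control in hybridization 1. With the dyes reversed it was 9511 in cl-sh3 and 61179.8 in the control. The control was the brighter RNA in either dye orientation. After normalization the log2 ratios were -3.27 and -2.62, averaging -2.94, or 7.69-fold lower in cl-sh3. The hybridizations differed by 0.647 at this probe, and 4.31% of kept probes differed by more. The RNA came from whole cultures, so fewer cells with the transcript and less transcript per cell cannot be told apart.

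A second TRIB3 probe of the same accession, A_24_P305541, gave the same direction and a smaller ratio. Its signals were 682.5 in cl-sh3 and 789.5 in the control in hybridization 1, then 365.5 and 777.5 in hybridization 2. The log2 ratios were -1.08 and -0.89, and their mean was -0.99, or 1.98-fold lower. It thus passed 2-fold in hybridization 1 and missed it in hybridization 2, just outside the count above. The positions of the probes within the transcript were not analysed here.

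DDIT3, the C/EBP relative CHOP, had 1 probe, A_23_P21134 (NM_004083). Its signals were 1394.5 in cl-sh3 and 3609 in the control in hybridization 1, and 1210.5 and 5009.5 in hybridization 2. The control was again brighter in both orientations. The log2 ratios were -2.19 and -1.94, with a mean of -2.06, or 4.18-fold lower in cl-sh3. This was the 10th lowest of the kept probes, and its gap between hybridizations, 0.255, was exceeded by 44.2% of them.

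CEBPB encodes C/EBP beta, which acts in inflammation, fat cell formation and survival, and whose long and short protein forms arise from 1 mRNA by choice of the translation start. Its probe A_23_P411296 (NM_005194) was printed 10 times on each array, so the spread of spots could be measured. In hybridization 1 the lowest spot read -1.58, the median -1.45 and the highest -1.27, with an SD of 0.0972 (n = 10 spots). In hybridization 2 the lowest read -1.35, the median -1.24 and the highest -1.13, with an SD of 0.0773. Every spot was thus beyond 2-fold lower in both hybridizations. The spot SD was below the median SD of the 264 probes printed 10 times, which was 0.117 and 0.116. The mean signals over the spots were 24159 in cl-sh3 and 33117 in the control in hybridization 1, and 15055 and 37142 in hybridization 2. The probe means of -1.44 and -1.24 average -1.34, or 2.52-fold lower, the 80th lowest of the kept probes. Spots of 1 probe share the RNA and do not stand for replicate clones.

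The other CEBPB probe did not show this difference. A_23_P143242, with 1 spot on each array and the same accession, read -0.05 and -0.07. Its signals were 2048.5 in cl-sh3 and 1161 in the control in hybridization 1, and 1306 and 1487 in hybridization 2, so that the brighter RNA was the one in Cy5 each time. Both CEBPB probes were well above background in both RNAs. Their gap, from -1.34 to -0.06, was far larger than the gap between hybridizations at either probe. Which of them reads the CEBPB mRNA more truly was not tested.

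**Figure D2:**
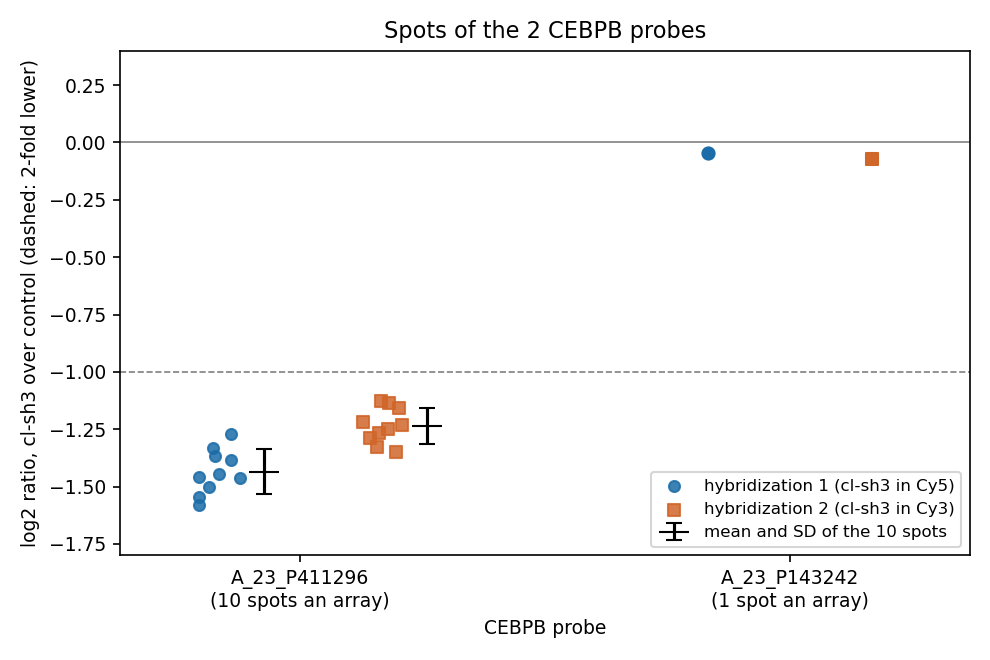
Each point is the log2 ratio of cl-sh3 over control (y axis) of 1 spot of a CEBPB probe (x axis), in hybridization 1 (circles) and hybridization 2 (squares), and the bars give the mean and SD of the 10 spots. The spots of A_23_P411296 lie between -1.58 and -1.13, all beyond 2-fold lower, and the single spots of A_23_P143242 lie at -0.05 and -0.07.

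CEBPG, a small C/EBP protein without an activation domain that pairs with ATF4 and other bZIP proteins, came next among the factors. A_23_P356755 (NM_001806) gave 8122.5 in cl-sh3 and 6823.5 in the control in hybridization 1, and 5449.5 and 9522 in hybridization 2. Before dye normalization, therefore, cl-sh3 was brighter in the first and the control in the second. After it the log2 ratios were -0.56 and -0.75, with a mean of -0.65, or 1.57-fold lower, and 3.12% of kept probes had a lower mean. CEBPE, a factor of late granulocyte maturation, read -0.54 and -0.39 at A_23_P2990 (NM_001805), a mean of -0.46 and 1.38-fold lower. Its signals were 978 in cl-sh3 and 769 in the control, then 645 and 935. Neither gene reached 2-fold in either hybridization.

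CEBPA and CEBPD were the members with higher values in cl-sh3. CEBPA encodes C/EBP alpha, which halts proliferation and drives fat, liver and granulocyte genes, and it was read by 3 probes of NM_004364. The signals of A_24_P216165 were 5320.5 in cl-sh3 and 2245.5 in the control, then 4967 and 3130.5, so cl-sh3 was brighter with either dye. Its log2 ratios were 0.42 and 0.74, with a mean of 0.58 or 1.49-fold higher. The other 2 CEBPA probes lay on the other side of 0. A_23_P375494 read -0.07 and -0.06, and A_24_P224727 read -0.19 and -0.16. At these the RNA in Cy5 was the brighter in each hybridization, and the gap to A_24_P216165 was larger than the gap between its hybridizations, 0.313. Whether CEBPA reads as higher or as little changed therefore rests on the choice of probe.

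CEBPD encodes C/EBP delta, an acute phase factor with low levels in many resting cells and fast induction by cytokines. Its probe A_23_P31810 (NM_005195) gave 111336 in cl-sh3 and 38576.1 in the control in hybridization 1, and 52212.9 and 47832.2 in hybridization 2. The log2 ratios were 0.41 and 0.22, with a mean of 0.31, or 1.24-fold higher. The sign was the same in both orientations, which differed by 0.189, but neither hybridization reached 1.5-fold.

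TRIB1 and TRIB2, the Tribbles genes that act on C/EBP alpha, were close to equal in the 2 clones. TRIB1 probe A_24_P252497 (NM_025195) read -0.36 and -0.16, with a mean of -0.26 or 1.20-fold lower. Its signals were 11868 in cl-sh3 and 8591 in the control, then 7742.5 and 8991.5. The second TRIB1 probe, A_23_P123503, was the 1 probe not kept, with signals of 72 to 119 at which each RNA was well above background only when it carried Cy3. Its ratios of -0.50 and -0.14 are given for completeness. TRIB2 (NM_021643) read -0.12 and 0.31 at A_23_P90696, the only kept probe of the 14 whose sign turned with the dyes, and -0.20 and -0.07 at A_24_P396753. That turn is in the normalized ratio. The signals of A_23_P90696 were 1095 in cl-sh3 and 639 in the control, then 440 and 397, so cl-sh3 was brighter each time. The 3 Tribbles genes thus differed among themselves, from -2.94 at the brightest TRIB3 probe to -0.26 and 0.09 at the brightest probes of TRIB1 and TRIB2.

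**Figure D3:**
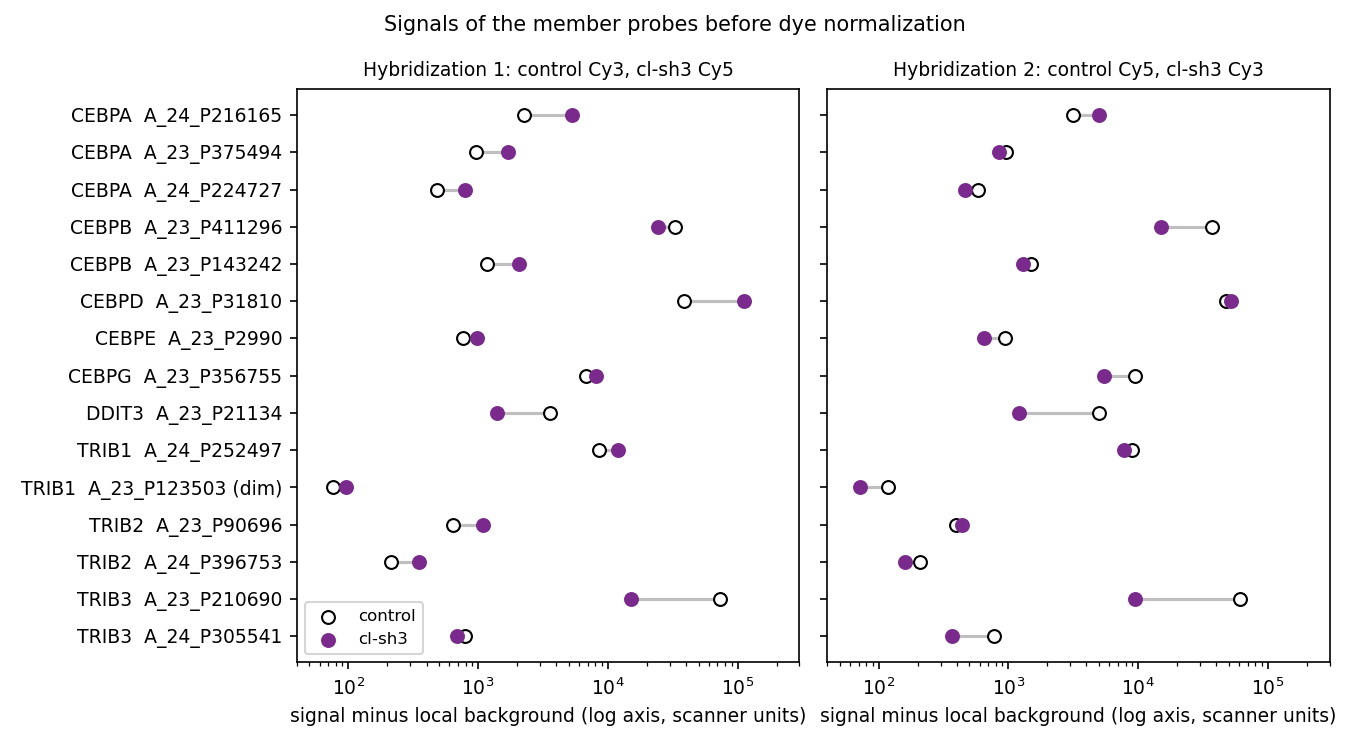
Signal minus local background of each probe on a log axis, for the control (open circles) and cl-sh3 (filled circles), in hybridization 1 (left) and hybridization 2 (right) before dye normalization. At both TRIB3 probes, at DDIT3 and at the upper CEBPB probe the control is brighter in both panels. At the upper CEBPA probe, the upper TRIB2 probe and CEBPD, cl-sh3 is brighter in both.

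Probes of 1 gene therefore disagreed on the 2-fold rule for 2 members, CEBPB and TRIB3, and on the sign of the mean for CEBPA and TRIB2. These are not opposite changes of like size. The lower CEBPA probes had means of only -0.06 and -0.17, and 1 TRIB2 probe changed sign with the dyes. DDIT3, CEBPD, CEBPE and CEBPG had a single probe, with nothing to set it against. The CEBPE probe, both TRIB2 probes, TRIB3 probe A_24_P305541 and CEBPA probe A_24_P224727 stayed below 1625 before background subtraction. That was the highest signal of a marker of leukocytes, endothelium or stroma. Whether these dimmer probes read their own transcripts was not tested. With the brightest kept probe of each gene, 3 of 9 members were at least 2-fold lower and 0 higher, beside 0.514% and 0.136% of the 16153 genes with a kept probe. By sign, 6 members were lower in both hybridizations and 2 higher, beside 28.4% and 30.9% of these genes, and the median of the 9 was -0.46. At 1.5-fold the same count was 3 lower and 0 higher, beside 2.6% and 1.6%. In the order of the brightest probes, TRIB3, DDIT3 and CEBPB came first, and the values of each in the 2 hybridizations did not overlap those of the next. CEBPG, CEBPE and TRIB1 followed at -0.65, -0.46 and -0.26, then TRIB2 at 0.09, CEBPD at 0.31 and CEBPA at 0.58. In hybridization 1 CEBPG and CEBPE read -0.56 and -0.54, and CEBPD and CEBPA read 0.41 and 0.42, so the order within these pairs is not settled. CEBPA and CEBPG are neighbours among protein-coding genes on chromosome 19, and the brightest CEBPA probe was higher in cl-sh3 while the CEBPG probe was lower.

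**Figure D4:**
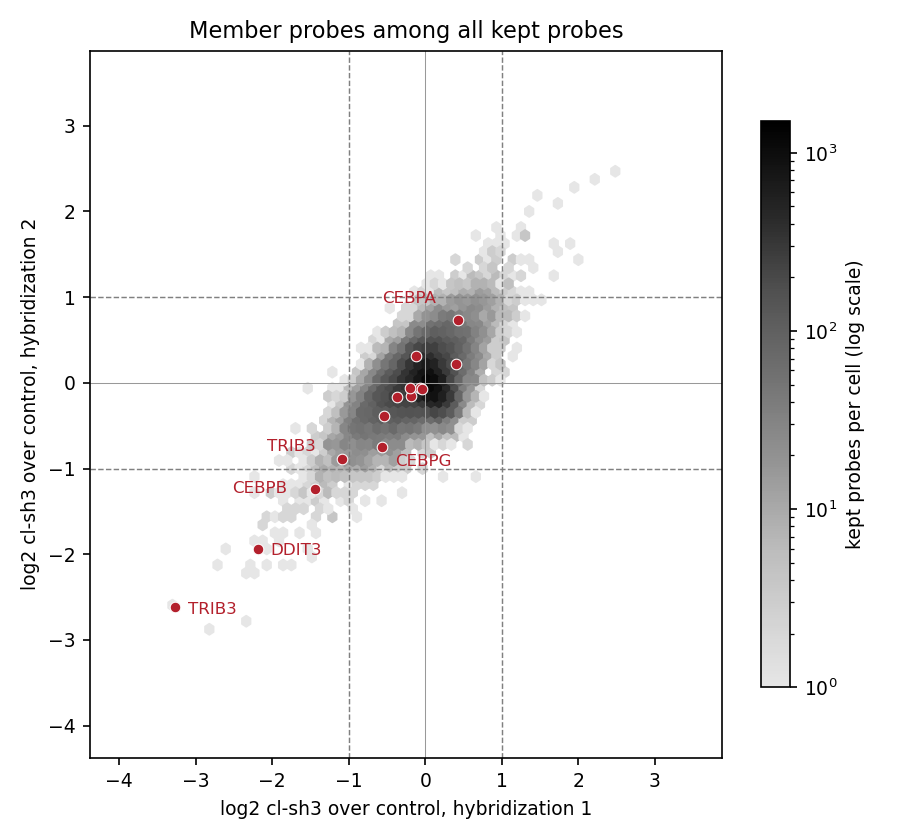
Log2 ratio of cl-sh3 over control in hybridization 1 (x axis) against hybridization 2 (y axis) for the 36060 kept probes (grey, darker for more probes per cell) and the 14 kept probes of the 9 genes (red). TRIB3 at -3.27 and -2.62 and DDIT3 at -2.19 and -1.94 lie at the lower left edge, and most other red points lie within the main cloud.

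Promoter sequence was examined for the members that were lower together. RefSeq (GRCh38.p14) windows of the 250 bases before a transcription start were at hand for 7 of the 9 members, 12 windows in all, since some genes have several starts. They were searched on both strands for the C/EBP-ATF response element TGATGNAA, the C/EBP site TTNNGNAA, the CRE core TGACG, the AP-1 site TGACTCA, the CCAAT box, the TATA box TATAAA and the RUNX site TGTGGT. None of the matches found overlapped a match of another motif. The 4 windows printed here show the 3 genes past 2-fold lower and the only member window with a C/EBP-ATF response element, each written 5′ to 3′ on the strand of its gene with matches in capitals.
TRIB3, chr20:381045-381294, plus strand: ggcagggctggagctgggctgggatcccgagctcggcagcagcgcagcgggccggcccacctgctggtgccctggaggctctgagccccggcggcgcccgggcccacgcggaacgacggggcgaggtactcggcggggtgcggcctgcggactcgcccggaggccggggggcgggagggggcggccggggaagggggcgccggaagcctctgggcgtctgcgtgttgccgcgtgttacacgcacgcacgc
DDIT3, chr12:57520518-57520767, minus strand: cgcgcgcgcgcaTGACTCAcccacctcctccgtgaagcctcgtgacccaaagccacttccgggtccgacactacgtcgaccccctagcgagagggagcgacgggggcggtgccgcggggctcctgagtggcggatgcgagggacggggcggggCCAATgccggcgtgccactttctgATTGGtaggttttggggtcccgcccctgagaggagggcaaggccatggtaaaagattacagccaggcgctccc
CEBPB, chr20:50190333-50190582, plus strand: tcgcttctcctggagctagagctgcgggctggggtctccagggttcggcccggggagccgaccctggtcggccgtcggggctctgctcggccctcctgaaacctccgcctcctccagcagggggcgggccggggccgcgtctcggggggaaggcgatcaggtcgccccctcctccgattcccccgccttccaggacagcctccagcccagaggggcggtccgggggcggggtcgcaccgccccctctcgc
CEBPG, chr19:33373863-33374112, plus strand: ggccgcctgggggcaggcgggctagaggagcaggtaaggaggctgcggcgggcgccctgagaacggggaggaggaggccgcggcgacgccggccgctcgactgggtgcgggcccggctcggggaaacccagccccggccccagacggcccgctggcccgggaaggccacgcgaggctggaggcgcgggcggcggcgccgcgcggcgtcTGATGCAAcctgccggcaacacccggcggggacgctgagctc

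In the DDIT3 window an AP-1 site began 238 bases before the start, and CCAAT boxes lay at 97 bases on the gene's strand and at 73 bases on the other. AP-1 sites were in 4.2% and CCAAT boxes in 32.0% of all 35116 windows of this length. In the CEBPG window TGATGCAA began 42 bases before the start, and TGATGNAA was in 3.14% of all windows. The printed TRIB3 and CEBPB windows held none of these letters. A second CEBPB start held a CCAAT box at 245 bases, TGACG at 57 and TATAAA at 29, the last 2 being in 21.2% and 10.7% of all windows. No member window held TGTGGT or TTNNGNAA, which were in 11.0% and 33.2% of all windows. Most member windows were rich in G and C, with a median of 77.2% against 58.0% in all windows, but the CEBPE window had 57.2%. The TRIB3 windows overlap each other, as do those of DDIT3, so this median counts some sequence more than once. The matches say nothing of what binds there.

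Genes above and below DDIT3 were read from lists of known pathway members, each gene by its brightest kept probe. Over all 16153 genes with a kept probe, the shares to set beside each list were 0.514% at least 2-fold lower and 0.136% higher. By sign, 28.4% were lower in both hybridizations and 30.9% higher, and the median of all these genes was 0.01. Of 10 genes upstream of DDIT3, 1 was at least 2-fold lower and 0 higher, with a median of 0.08. This was ATF4, which activates DDIT3, TRIB3 and ATF3 when translation initiation is restrained. It read -1.54 and -1.30, averaging -1.42, which is 2.68-fold lower, and the mean at its other probe was -0.77. The eIF2 alpha kinases EIF2AK1, EIF2AK2, EIF2AK3 and EIF2AK4, which act before ATF4, had means of 0.17, 0.68, 0.34 and 0.27. Their 2 hybridizations read 0.35 and -0.01, 0.40 and 0.96, 0.11 and 0.56, and 0.10 and 0.45. The other EIF2AK1 probe had a mean of -0.0056.

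Of 17 target genes of DDIT3 and ATF4, 5 were at least 2-fold lower and 0 higher, 13 were lower in both hybridizations and 2 higher, and the median was -0.57. ASNS, which makes asparagine, read -2.06 and -2.10, or 4.23-fold lower. NUPR1, a stress-induced chromatin protein, read -1.49 and -1.97, or 3.31-fold lower. CTH, which makes cysteine from cystathionine, read -1.75 and -1.53, or 3.12-fold lower. DDIT4, an inhibitor of mTORC1, read -1.41 and -1.40, and ATF3, a bZIP repressor of the stress response, read -1.23 and -1.27. These 5 genes are named because both hybridizations passed 2-fold, so agreement between their ratios was fixed by the rule. The list had the lowest median of the 6 pathway lists. It was written with earlier results of these arrays known, so its count is not independent of the values.

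Among bZIP partners and relatives of C/EBP, 16 of 18 genes had a kept probe, 3 were at least 2-fold lower and 0 higher, and the median was -0.19. These were ATF4 and ATF3, already given, and NFIL3, a bZIP repressor that binds sites related to those of C/EBP. NFIL3 read -1.22 and -1.56, averaging -1.39, or 2.62-fold lower. Of 16 Tribbles partners, which include COP1, the AKT kinases and the MEK kinases, 0 were 2-fold lower and 0 higher, 7 were lower in both hybridizations and 5 higher, and the median was -0.02. COP1, the ligase that Tribbles proteins recruit, had a mean of -0.19.

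Genes bound by C/EBP factors in other tissues showed no common direction. Of 17 inflammatory and acute phase genes bound by C/EBP beta and delta, 2 were at least 2-fold lower, 6 were lower in both hybridizations and 6 higher, with a median of -0.0012. One of the 2 was CEBPB itself, which the list contains. The other was PTX3, a secreted pattern recognition protein, at -1.22 and -1.25 or 2.36-fold lower. Of 10 adipocyte and liver genes bound by C/EBP alpha, 8 had a kept probe and 1 was at least 2-fold lower. This was G0S2, an inhibitor of the triglyceride lipase ATGL, at -2.37 and -2.78, averaging -2.57, or 5.95-fold lower. The other 7 lay between -0.12 and 0.12, and the median of the 8 was 0.0017. FABP4 and PLIN1 of this list were well above background in the control in only 1 hybridization. So were PTGS2 and TNFAIP6 of the inflammatory list. Whether SKOV3 cells express the genes of these lists was not tested, so a ratio near 0 need not mean an expressed and unchanged gene.

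**Figure D5:**
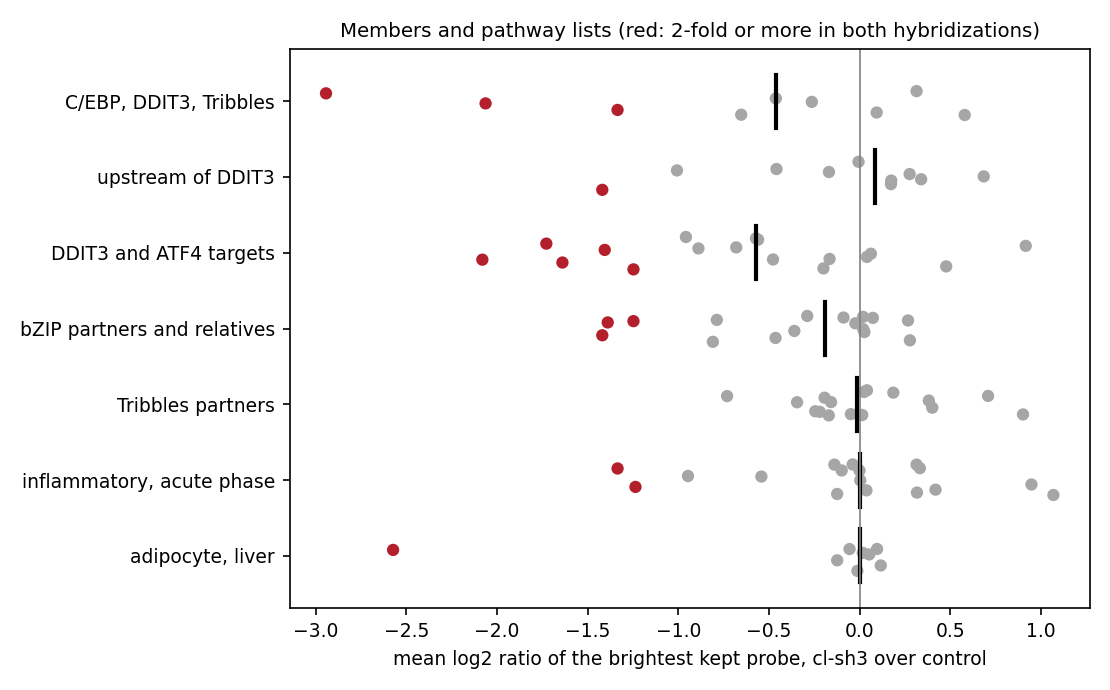
Each point is the mean log2 ratio of cl-sh3 over control (x axis) of 1 gene's brightest kept probe, by list (y axis, with random vertical scatter), in red where both hybridizations were at least 2-fold, with the list median as a bar. The 9 members and the DDIT3 and ATF4 targets have medians of -0.46 and -0.57, and the medians of the other 5 lists lie between -0.19 and 0.08.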

How the data were processed

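Total RNA of the cl-sh3 and control clones was amplified to Cy3- or Cy5-labelled cRNA and hybridized in 2 arrays with reversed dyes. The authors deposited the intensity of every spot from Agilent Feature Extraction (10.5.1.1 in the file headers, 8.5.1.1 in the labels), with local background, outlier flags and a flag for signal well above background. They also deposited log10 ratios of the software, after its own dye normalization, and a table of log10 ratios that equals these to within 0.00245 and 0.00500.

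From the deposited intensities, median pixel signals were background-corrected over the median local background by limma 3.58.1 (R 4.3.3) using normexp and an offset of 50. Control spots (1639 of 45015) were then removed, flagged spots (153 and 144, none of them of the 9 genes) set to missing, and loess was applied within each array. Ratios, as log2 with cl-sh3 as the numerator, were averaged over a probe's spots. Different probes of a gene were not averaged. A probe's RNA counted as well above background when at least 0.5 of its spots were flagged so. No spot was saturated. A probe was called at 2-fold or more in both hybridizations, the rule of the study's design. With 1 replicate no test was made, and the number of arrays limits the precision.

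Names of accessions came from RefSeq (GRCh38.p14), which held 18023 of 19228, and NM_004348 as RUNX2 from the study's supplement. The members and lists were chosen with earlier results of these data known. Besides the members, ATF4 and RUNX2, the rule named up to 6 genes a list that passed 2-fold in both hybridizations, by size of the mean. EIF2AK1 to EIF2AK4 and COP1 are named outside it, after their values were seen. The steps were tested on simulated data. In 41000 simulated probes hybridized in both dye orders, as for cl-sh3 and control, 100 of 100 probes at 3-fold and 100 of 100 at 4-fold were recovered, and 0 unchanged probes were called. Changes were planted only in the brighter probes and not below 3-fold, and the noise was not taken from these arrays. The simulation therefore does not cover dim probes or ratios near 2-fold. Alternatives were offset 0, no background correction, median centring, Aquantile, flagged spots kept, the software's and the table's ratios, no filter, a filter on both RNAs, each hybridization alone, the mean in the 2-fold rule, 1.5-fold, and the mean of a gene's probes. Python 3.11.15, numpy 2.4.6, pandas 2.3.3 and matplotlib 3.10.9 were used.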

Additional observations from a re-analysis of the deposited data

How the results depend on the processing

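TRIB3 (A_23_P210690), DDIT3 and CEBPB (A_23_P411296) were at least 2-fold lower in the main setting and in each of the 9 processing alternatives, where their means ranged from -2.95 to -2.79, from -2.12 to -1.99 and from -1.34 to -1.19. That they also were in each hybridization alone was fixed by the rule, which asks for 2-fold in both. The count of probes at least 2-fold lower was 3 throughout, apart from 4 in hybridization 1 alone and 4 at 1.5-fold, the fourth being A_24_P305541 of TRIB3, and 0 probes were higher in any. Probes lower in both hybridizations numbered 9 with median centring and with the software's or the table's ratios, and up to 12 elsewhere. Members whose probes disagreed on 2-fold were 2, and 1 to 2 with a single hybridization. The pathway lists held 10 genes lower (8 to 12 under the alternatives) and 0 higher, but 2 higher with the software's ratios and 2 with the table's (SAA1 and SAA2), and 2 in each hybridization alone (AKT2 and BBC3 in the first, MAP2K2 and SAA1 in the second); the cause was not tested. Of 155 values of single probes under the alternatives, 145 kept a 2-fold call or, without one, shifted by less than the SD of the 2 hybridizations, 9 shifted by more, 1 passed 2-fold and 0 lost a call. The sign turned in 1 value, that of TRIB2 A_23_P90696, from 0.09 to -0.12 in hybridization 1 alone. Over all kept probes, 142 were at least 2-fold lower and 44 higher, against 253 and 103 with the software's ratios, 251 and 103 with the table's, 194 and 61 with offset 0, and 250 and 93 when the mean had to pass. Aquantile, no filter and the filter on both RNAs leave a probe's ratios as they are by construction. A hybridization alone always lies within the SD of the 2 hybridizations from their mean. The 145 values therefore include many that could not have shifted by more. The median of all kept probes stayed between 0.01 and 0.03. No paired analysis was possible because both hybridizations held the same pair of RNAs. Without a second pair of clones, the spread between clones is unknown.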

Other observations

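Some genes of the pathway lists lay close to the 2-fold rule without meeting it, and were chosen after their values were seen. HSPA5, the endoplasmic reticulum chaperone BiP, read -1.04 and -0.98, while its other probe had a mean of -0.15. CHAC1, which degrades glutathione and is a target of ATF4, read -0.70 and -1.22. The chemokine CXCL8, whose promoter holds a C/EBP site, read -1.05 and -0.84. In the other direction, SAA1 and SAA2, acute phase proteins of liver that C/EBP beta and delta activate, read 0.88 and 1.25, and 0.90 and 1.00. These paralogs are near-identical, so their probes may read each other's mRNA. BBC3, which encodes the apoptosis factor PUMA, read 1.01 and 0.82 at its brightest probe, while the means of its other probes ran from -0.94 to 0.08.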
